A study of Mus musculus with 8 samples.

Results

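The genes described here copy DNA in S phase: 47 genes whose products recognise and load replication origins, form and activate the MCM helicase, synthesise DNA, hold and load the sliding clamp, coat and join DNA strands, supply nucleotides or direct entry into S phase. They were chosen by name, without a cutoff on any measured value, but with earlier results of these data known. A gene was represented by the brightest probe set carrying its symbol alone, which gave a value for 46 of the 47 genes, out of 22180 genes on the array. Rfc4, a clamp loader subunit, lay only on a probe set shared with Eif4a2 and has no value here. Of the 46, 45 passed the intensity filter, a mean over the 8 arrays no lower than that of the middle probe set (log2 5.56). Orc1, a subunit of the origin recognition complex, did not pass, at 5.34, 5.72, 5.56 and 5.09 in WT and 4.97, 5.07, 5.07 and 5.04 in KO.

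The study concerned protein geranylgeranylation in the egress of thymocytes. RNA came from sorted CD4SP thymocytes, the CD4 single-positive T cells of the thymus, of C57BL/6 mice. The 4 WT arrays were compared with 4 arrays of genotype Pggt1b_KO (KO below). The product of Pggt1b is the beta subunit of the enzyme that carries out this modification, attaching a geranylgeranyl lipid to small GTPases. The Cre driver, the deleted region, and the age and number of the mice are not stated in the labels. Nothing says whether each replicate was its own mouse, and the p-values rest on the spread among these arrays, which may be technical. Values are log2 intensities, and a level is not compared between genes. A difference is KO minus WT with the standard error (SE) of the limma fit, and a gene was called where its p, adjusted over all 11585 tested genes, was under 0.05.

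Before S phase, the origin recognition complex, with CDC6 and CDT1, loads the MCM helicase onto DNA, and CDC45 and the GINS complex then join and activate it. Polymerase alpha with primase starts each strand, polymerases delta and epsilon extend it, replication factor C loads the PCNA clamp, and FEN1 and ligase I finish the lagging strand fragments. Many of these genes are transcribed under E2F factors as a cell leaves G1, so their RNA is abundant in dividing cells, which in the thymus lie mostly at stages before the single-positive one.

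Pggt1b was lower in every array labelled KO than in every WT array. It measured 8.35, 8.38, 8.29 and 8.36 in WT and 7.89, 7.57, 7.69 and 7.86 in KO, a difference of -0.59 (SE 0.072, adjusted p = 0.00141). Whether the probe set covers the deleted part is not known. Array medians lay between 5.52 and 5.59, and no 2 arrays were identical. The defining genes of CD4SP cells were present on all arrays, with Cd4 at a mean of 12.27 in WT and 12.26 in KO and Cd3e at 12.50 and 12.47.

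Replication genes were lower in KO. Of the 45 tested genes 26 fell, 2 rose and 17 were not called. Among all 11585 tested genes, 8.53% fell and 4.45% rose, while 57.8% of the replication genes fell. With each array centred on its median instead, 11.4% of all genes fell and 3.31% rose, and of the replication genes 29 fell and 1 rose. The median difference of the replication genes was -0.28 log2, against -0.030 for all tested genes, and 41 of the 45 differences were negative. The 4 KO arrays were all below the 4 WT arrays in 29 replication genes, against 13.5% of all tested genes, and above them in 2, against 6.79%. The 26 genes that fell were all among these 29; Cdt1, Mcm6 and Rpa3 were separated in the same way but were not called. The changes were modest in size: the greatest fall was 1.92-fold, in Dtl, and the greatest rise 1.18-fold, in Orc5. In bulk RNA, fewer cells in S phase and less of these RNAs per cell cannot be told apart.

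**Figure D1:**
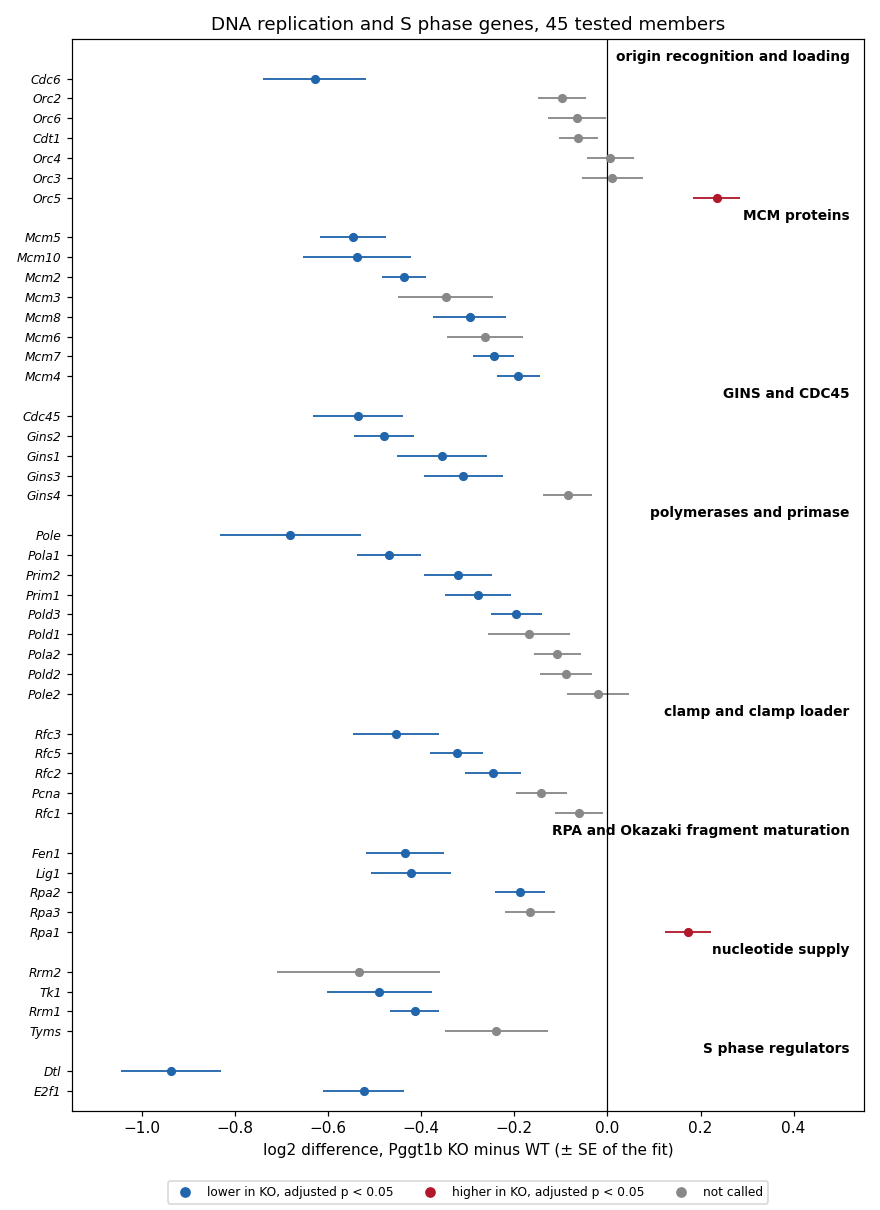
Difference in log2 intensity, KO minus WT, of each of the 45 tested replication genes (horizontal axis), arranged by role (vertical axis), with the SE of the limma fit as bars; colours mark genes that fell, rose or were not called. Most points lie left of 0, from -0.94 in Dtl to 0.23 and 0.17 in Orc5 and Rpa1, the 2 genes that rose.

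How firmly the falls were called depended on the arrays. Of the 26 falls, 14 were called whichever single array was left out, as was the rise of Orc5. Leaving out WT replicate 2 gave 15 falls (4.26% of all genes fell), WT replicate 3 gave 17 (5.17%) and KO replicate 1 gave 17 (4.41%). The count was also 17 with heat-shock RNA as a covariate (4.52% of all genes), and 6 without KO replicates 1 and 2 (1.05% of all genes), both added after the data were seen. Without the intensity filter, with 22180 genes tested, 18 replication genes fell (2.51% of all genes), and the calls of Mcm4, Mcm8, Gins1, Gins3, Prim1, Pold3, Rfc2, Rpa2 and the rising Rpa1 ended. With the sample number of the titles as a further covariate 20 fell (7.86% of all genes), and the calls of Mcm8, Gins1, Gins3, Prim1, Rfc2 and Rpa2 ended. The heat-shock covariate ended those of Mcm4, Mcm8, Gins1, Gins3, Prim2, Pold3, Pole, Rfc2, Tk1 and Rpa1. The median difference of the replication genes stayed between -0.32 and -0.24 under each of these settings and without any one array.

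The heat-shock genes Hspa1a and Hspa1b, which heat and other stress induce, varied widely among the arrays. Their mean was 5.27, 6.36, 8.58 and 6.74 in WT and 10.34, 9.79, 4.57 and 8.25 in KO, so that 2 KO arrays stood above all WT arrays and KO replicate 3 below all of them. The mean replication level, relative to the WT mean, was 0.025, 0.086, 0.015 and -0.126 in WT and -0.286, -0.292, -0.302 and -0.273 in KO. The part of heat-shock RNA in these levels was not tested.

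Markers of other thymic cells were examined too. The counts of falls and rises given from here on, for markers, groups and lists, stand beside 8.53% of all tested genes that fell and 4.45% that rose. Of the 6 measured markers of double-positive and earlier thymocytes 1 fell, the coreceptor gene Cd8a (-0.74, adjusted p = 0.0354). Leaving out WT replicate 2 or 3 or KO replicate 2 or 4 ended this call (adjusted p at most 0.0893). Dntt, the terminal transferase of early thymocytes, differed by -0.30 (adjusted p = 0.107) and Arpp21 by -0.25 (adjusted p = 0.255). The list means overlapped, at 7.70 to 8.03 in WT and 7.34 to 7.73 in KO. The KO arrays measured 7.66, 7.34, 7.73 and 7.48 in this list, and their replication levels were -0.286, -0.292, -0.302 and -0.273. Whether the list and the replication level go together was not tested.

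Of 8 regulatory T cell markers 3 fell, Ccr8 (-0.98, adjusted p = 8e-05), Tnfrsf4 (-0.49, adjusted p = 0.00548) and Tnfrsf18 (-0.32, adjusted p = 0.00979), with list means of 9.19 to 9.29 in WT and 8.83 to 9.02 in KO. Foxp3, the factor that defines these cells, differed by 0.17 (adjusted p = 0.505). Of 8 innate-like and effector markers 6 were tested and 3 fell, Nkg7 (-0.83, adjusted p = 0.0179), Il2rb (-0.49, adjusted p = 0.0138) and Zbtb16 (-0.69, adjusted p = 0.0453), with list means of 6.40 to 6.92 in WT and 6.17 to 6.34 in KO. Leaving out WT replicate 2 or any 1 KO array ended the call of Zbtb16 (adjusted p at most 0.106). Of 8 CD4SP markers 1 fell, Gata3 (-0.26, adjusted p = 0.0144), with list means of 11.33 to 11.36 in WT and 11.24 to 11.30 in KO.

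Markers of cells outside the T lineage were mostly near or below the filter. Of 6 B cell markers 1 was tested, Cd79b (0.05, not called), and the list means overlapped, at 5.11 to 5.22 in WT and 5.13 to 5.33 in KO. Of 6 myeloid markers 3 were tested and 0 called by limma (1 at an unadjusted p under 0.05, against 3378 of all 11585 tested genes). The list means were 5.40 to 5.63 in WT and 5.43 to 5.77 in KO. Of 8 epithelial and stromal markers 3 were tested and 1 rose, the endothelial gene Pecam1 (0.24, adjusted p = 0.0286), which T cells also express. That call ended without any 1 of the arrays other than WT replicate 1 and KO replicate 4 (adjusted p up to 0.0769), and the list means overlapped, at 6.12 to 6.19 in WT and 6.09 to 6.23 in KO. Of 5 erythroid markers only Epor had a value, below the filter at 5.54 in WT and 5.48 in KO. The part of heat-shock RNA and of each of these marker lists in the replication result was not tested.

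The DNA before the start of these genes gives a view of a feature other than RNA level. The choice of genes is not independent of it, since many of these genes are known to be transcribed under E2F factors. An excess of E2F letters over all genes may follow from that choice alone. E2F factors bind letters such as TTTGGCGC, TTTCCCGC, TTTGCCGC and TTTCGCGC, and these 4 words were searched on both strands in the 250 bases before each RefSeq gene start of the assembly GRCm38.p6. No window was available for 7 genes, Gins1, Gins2, Gins4, Mcm4, Pole, Prim2 and Rfc2, of which all but Gins4 fell. The other 40 of the 47 genes had 48 such windows. Of these, 13 lay wholly inside the RefSeq span of their gene, before an internal start, among them every window of Cdc6, E2f1, Orc1, Orc4 and Rfc1, and were not counted. The E2F words stood in 8 of the other 35 windows (22.9%), against 467 of 25084 windows of all genes chosen alike (1.86%). They stood in 6 of 18 windows of genes that fell (33.3%) and in 0 of 2 windows of genes that rose. In the other genes they stood in 2 of 15 windows (13.3%), those of Mcm6 and Orc3. Mcm6 was not called, but all its KO arrays lay below all its WT arrays (-0.26). With the internal windows included, the shares were 29.2% of the windows of genes that fell, 13.6% of those of the other genes and 1.86% of all windows. A match is a description of letters, not a bound site, and internal windows were set aside only on a later look at the data.

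The windows of 5 genes are shown, written 5′ to 3′ on the gene's strand, with the E2F letters in capitals. Dtl is shown as the gene with the greatest fall, and its letters end at the last base before the start (chr1:191575545-191575794, minus strand). Mcm5 shows 2 overlapping words, TTTCGCGC on the gene's strand and TTTGGCGC on the other, that end 145 and 141 bases before the start (chr8:75109259-75109508, plus strand). Gins3, a GINS subunit, carries TTTCCCGC on the other strand, 33 bases before the start (chr8:95633309-95633558, plus strand). Rfc3 carries TTTCGCGC on the gene's strand 2 bases before the start (chr5:151651209-151651458, minus strand). Orc5 is shown for contrast, as the called gene that rose most, and holds none of the 4 words (chr5:22550339-22550588, minus strand). These genes were picked after their values were seen.
Dtl: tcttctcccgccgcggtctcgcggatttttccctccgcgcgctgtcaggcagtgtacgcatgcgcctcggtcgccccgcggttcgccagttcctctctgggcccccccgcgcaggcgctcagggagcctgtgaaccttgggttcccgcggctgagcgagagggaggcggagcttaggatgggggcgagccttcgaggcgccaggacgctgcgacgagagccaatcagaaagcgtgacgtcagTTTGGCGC
Mcm5: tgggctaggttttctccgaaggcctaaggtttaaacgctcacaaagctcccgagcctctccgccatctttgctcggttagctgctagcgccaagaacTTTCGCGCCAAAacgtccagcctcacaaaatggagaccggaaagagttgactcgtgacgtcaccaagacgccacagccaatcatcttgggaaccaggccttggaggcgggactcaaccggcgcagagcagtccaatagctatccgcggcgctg
Gins3: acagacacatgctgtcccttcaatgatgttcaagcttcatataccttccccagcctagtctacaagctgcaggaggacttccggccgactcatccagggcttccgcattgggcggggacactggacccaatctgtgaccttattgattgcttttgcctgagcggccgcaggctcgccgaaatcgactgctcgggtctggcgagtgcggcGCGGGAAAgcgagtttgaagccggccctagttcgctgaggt
Rfc3: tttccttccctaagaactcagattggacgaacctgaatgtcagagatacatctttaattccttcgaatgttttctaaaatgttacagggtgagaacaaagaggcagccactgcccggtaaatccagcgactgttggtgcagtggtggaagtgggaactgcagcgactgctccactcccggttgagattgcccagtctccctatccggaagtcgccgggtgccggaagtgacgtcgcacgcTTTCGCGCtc
Orc5: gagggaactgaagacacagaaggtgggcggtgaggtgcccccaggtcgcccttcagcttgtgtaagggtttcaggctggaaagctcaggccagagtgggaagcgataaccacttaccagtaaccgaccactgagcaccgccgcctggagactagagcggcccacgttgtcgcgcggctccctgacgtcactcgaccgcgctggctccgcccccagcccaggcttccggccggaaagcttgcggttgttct

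The 6 genes that fell and carried the E2F words were Dtl, Gins3, Mcm5, Mcm7, Pola1 and Rfc3, although most of the windows of Mcm7 and Pola1 lay inside the gene's span, 228 and 232 of the 250 bases. Mcm2, Rrm1, Lig1 and Fen1 fell without holding these words in their windows. Shorter promoter words were counted in the same 35 windows. The CCAAT letters of NF-Y stood in 72.2% of the windows of genes that fell and 46.7% of those of genes not called or not tested, against 34.9% of all windows. The GC box letters GGGCGG ran the other way, in 44.4% and 93.3%, against 31.7% of all windows. They stood in 68.6% of the 35 windows of replication genes, so these windows differ from those of all genes in other letters too. The letters TTTGAA, part of the CHR element of mitotic genes, stood in 4 of 18 (22.2%) and 0 of 15, against 16.6%. The difference between the windows of called and uncalled genes was not tested for any of these words.

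Both regulators of S phase fell. Dtl encodes the substrate receptor of a ubiquitin ligase that removes CDT1 during S phase. It measured 7.97, 8.01, 7.89 and 7.47 in WT and 6.82, 6.88, 6.96 and 6.92 in KO. Every KO array lay below every WT array, and WT replicate 4 was the lowest of its group by some way. The difference was -0.94 (SE 0.11, adjusted p = 0.000997), a 1.92-fold fall. E2f1, a transcription factor that switches on replication genes, measured 7.80, 7.62, 7.73 and 7.39 in WT and 7.06, 7.06, 7.10 and 7.23 in KO, again without overlap. It fell 1.44-fold (-0.52, SE 0.086, adjusted p = 0.00548). Both falls were called whichever array was left out.

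Of the 7 tested genes for origin recognition and MCM loading 1 fell and 1 rose, with a median of -0.063. Cdc6, which brings the helicase to the origin, fell 1.55-fold (-0.63, SE 0.11, adjusted p = 0.00733). It measured 7.0, 7.11, 7.04 and 6.60 in WT and 6.33, 6.23, 6.19 and 6.47 in KO; the groups did not overlap, though WT replicate 4 and KO replicate 4 came near each other. Orc5, an origin recognition subunit, measured 8.92, 8.79, 8.77 and 8.83 in WT and 9.03, 9.11, 9.04 and 9.07 in KO. All KO arrays were the higher ones, and Orc5 rose 1.18-fold (0.23, SE 0.050, adjusted p = 0.0169).

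The other origin genes were not called. Orc2 measured 8.36, 8.47, 8.38 and 8.36 in WT and 8.25, 8.38, 8.28 and 8.28 in KO, with KO replicate 2 inside the WT range (-0.10, adjusted p = 0.241). Cdt1, the partner of CDC6 in loading, measured 8.70, 8.71, 8.69 and 8.73 in WT and 8.63, 8.66, 8.62 and 8.68 in KO. The Cdt1 groups were separated, but by so little (-0.063, 95% confidence interval -0.157 to 0.032) that it was not called (adjusted p = 0.363). Orc3, Orc4 and Orc6 differed by 0.01, 0.01 and -0.07.

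Among the 8 MCM genes 6 fell, and all 8 differences were negative (median -0.32). Mcm5, a subunit of the helicase ring, measured 10.35, 10.20, 10.12 and 10.01 in WT and 9.61, 9.59, 9.63 and 9.66 in KO. The KO arrays lay within a narrow band below all WT arrays, a 1.46-fold fall (-0.55, SE 0.071, adjusted p = 0.00174). Mcm2, another ring subunit, measured 9.94, 9.98, 9.93 and 9.89 in WT and 9.57, 9.45, 9.49 and 9.49 in KO. Its arrays spread little within either genotype, and it had the smallest adjusted p of the replication genes (-0.44, SE 0.047, adjusted p = 0.000745).

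Mcm10, which is not part of the ring but helps to start unwinding, measured 6.95, 7.13, 7.04 and 6.59 in WT and 6.26, 6.27, 6.50 and 6.53 in KO. WT replicate 4 stood just above the highest KO array. Mcm10 fell 1.45-fold (adjusted p = 0.0169), a call that ended without KO replicate 1 (adjusted p = 0.0519). Mcm8, a helicase of recombination rather than of the ring, measured 6.28, 6.53, 6.40 and 6.18 in WT and 6.04, 6.00, 6.17 and 5.99 in KO. WT replicate 4 and KO replicate 3 nearly met, and the 1.23-fold fall (adjusted p = 0.0372) needed WT replicates 2 and 3 and KO replicates 1, 2 and 4 (otherwise adjusted p at most 0.0879).

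Of the other ring subunits 2 were called. Mcm7 fell 1.18-fold (adjusted p = 0.00845), and Mcm4 fell 1.14-fold (adjusted p = 0.0271), the latter only where WT replicates 1, 2 and 3 and KO replicates 2 and 3 were all kept (otherwise adjusted p at most 0.0742). Mcm3 differed by -0.35 with overlapping groups (adjusted p = 0.0512). Mcm6 differed by -0.26 with separated groups (adjusted p = 0.0637).

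**Figure D2:**
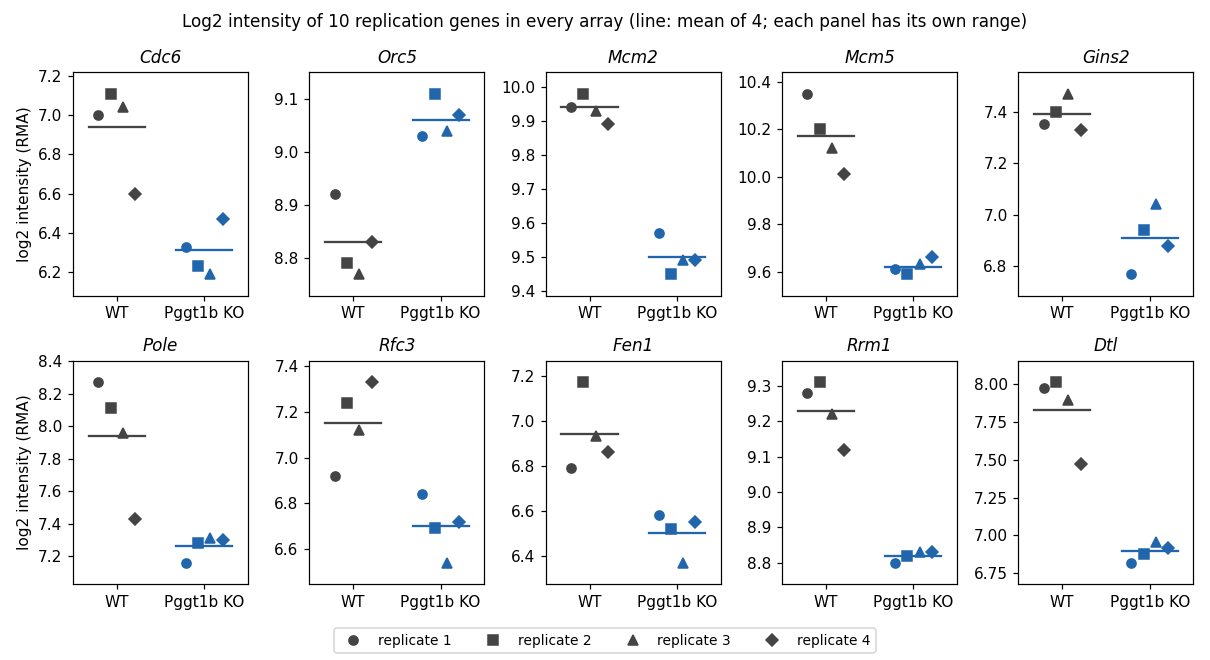
Log2 intensity (vertical axis) of 10 replication genes in each of the 4 WT and 4 KO arrays (points), with the mean of each genotype as a line; each panel has its own range. In 9 genes all KO points lie below all WT points, and in Orc5 all lie above them.

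Of the 5 genes of the GINS complex and CDC45, which complete the active helicase, 4 fell, and all 5 differences were negative (median -0.35). Cdc45 measured 6.83, 6.86, 6.77 and 6.63 in WT and 6.18, 6.20, 6.05 and 6.51 in KO, with KO replicate 4 closest to WT. It fell 1.45-fold (-0.54, SE 0.096, adjusted p = 0.00799). Gins2 measured 7.35, 7.40, 7.47 and 7.33 in WT and 6.77, 6.94, 7.04 and 6.88 in KO. Its groups were well apart, and it fell 1.40-fold (-0.48, SE 0.065, adjusted p = 0.00207).

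The 2 other GINS calls were weak. Gins1 measured 5.75, 6.09, 5.76 and 5.69 in WT and 5.45, 5.55, 5.58 and 5.28 in KO, where its mean of 5.47 was under the filter, so that it was tested only because of its WT level (-0.35, adjusted p = 0.0408). Gins3 measured 7.94, 8.22, 7.96 and 7.99 in WT and 7.88, 7.61, 7.79 and 7.59 in KO, separated by a small gap (-0.31, adjusted p = 0.0404). With single arrays left out, Gins1 stayed called only without WT replicate 4 and Gins3 only without WT replicate 1 or KO replicate 1 (highest adjusted p 0.0960 and 0.0981). The count for the group was accordingly 2 where WT replicate 2 or 3, or KO replicate 2, 3 or 4, was absent. Gins4, the remaining subunit of the complex, differed by -0.09 with overlapping groups (adjusted p = 0.317).

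Of 9 polymerase and primase genes 5 fell, and all 9 differences were negative, with a median of -0.20. Pole, the catalytic subunit of polymerase epsilon, measured 8.27, 8.11, 7.96 and 7.43 in WT and 7.16, 7.28, 7.31 and 7.30 in KO. The KO arrays lay close together, while WT replicate 4 was far below the other WT arrays and near KO. Pole fell 1.60-fold (-0.68, SE 0.15, adjusted p = 0.0189). That call ended without WT replicate 2 (adjusted p = 0.0522) or KO replicate 1 (adjusted p = 0.0550), and also in the mean with its second, dim probe set (mean 4.41, difference -0.02).

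Pola1, the catalytic subunit of polymerase alpha, measured 8.07, 8.11, 8.01 and 7.80 in WT and 7.60, 7.47, 7.52 and 7.52 in KO. The groups were apart, and its 1.38-fold fall (-0.47, SE 0.070, adjusted p = 0.00334) was called without any single array. Prim2, the large primase subunit, measured 8.87, 8.90, 8.76 and 8.57 in WT and 8.48, 8.43, 8.47 and 8.43 in KO, again with WT replicate 4 next to KO. It fell 1.25-fold (adjusted p = 0.0204), but not without WT replicate 2 (adjusted p = 0.0531). Prim1, the catalytic primase subunit, measured 6.98, 7.17, 6.97 and 6.88 in WT and 6.73, 6.81, 6.60 and 6.76 in KO. It fell 1.21-fold (adjusted p = 0.0334), a call kept only without WT replicate 4 or KO replicate 2 (0.0843 at most elsewhere).

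The polymerase delta subunit Pold3 fell 1.15-fold (adjusted p = 0.0448), a call that held only with all arrays or without WT replicate 1 (otherwise adjusted p up to 0.107). The other subunits, Pola2, Pold1, Pold2 and Pole2, had differences of -0.11, -0.17, -0.09 and -0.02 and overlapping groups. The polymerase group thus held 1 of the greatest falls and 1 of the smallest differences among the replication genes, Pole and Pole2, which encode subunits of the same enzyme. Its count of falls was 1 without WT replicate 2, 2 without KO replicate 1 and 3 without WT replicate 3 or KO replicate 3 or 4.

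Among 5 genes of the clamp and its loader 3 fell, and all 5 differences were negative (median -0.25). Rfc3, a loader subunit, measured 6.92, 7.24, 7.12 and 7.33 in WT and 6.84, 6.69, 6.54 and 6.72 in KO. Here WT replicate 4 was the highest array, and Rfc3 fell 1.37-fold (-0.45, SE 0.093, adjusted p = 0.0139). Rfc5 measured 8.78, 8.77, 8.70 and 8.58 in WT and 8.38, 8.32, 8.42 and 8.41 in KO, without overlap, and fell 1.25-fold (-0.32, SE 0.057, adjusted p = 0.00728).

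Rfc2 measured 8.31, 8.31, 8.34 and 8.11 in WT and 8.03, 7.99, 7.97 and 8.09 in KO, with WT replicate 4 and KO replicate 4 almost level. It fell 1.19-fold (adjusted p = 0.0292), a call kept only without WT replicate 4 or KO replicate 4 (0.0764 at most elsewhere). Pcna, the clamp itself, measured 11.34, 11.25, 11.35 and 11.19 in WT and 11.16, 11.12, 11.08 and 11.21 in KO. Its groups overlapped through WT replicate 4 and KO replicate 4, and the difference of -0.14 was not called (95% confidence interval -0.264 to -0.021, adjusted p = 0.116). Rfc1, the large loader subunit, differed by -0.06.

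The single-strand binding complex RPA was divided. Rpa1, its large subunit, measured 9.58, 9.52, 9.46 and 9.44 in WT and 9.68, 9.70, 9.63 and 9.67 in KO, and rose 1.13-fold (adjusted p = 0.0466). Rpa2, the middle subunit, measured 8.43, 8.44, 8.41 and 8.38 in WT and 8.30, 8.27, 8.11 and 8.21 in KO, and fell 1.14-fold (adjusted p = 0.0453). Both separations were narrow and both calls fragile: that of Rpa1 ended without any 1 array other than WT replicate 1 (adjusted p up to 0.111), with each array centred on its median (0.14, adjusted p = 0.0926) and in the mean with its second, dim probe set (0.07, adjusted p = 0.375), and that of Rpa2 without any 1 array (adjusted p from 0.0569 to 0.109). Rpa3, the small subunit, differed by -0.17 (adjusted p = 0.0693), and by -0.12 on its second, dimmer probe set (mean 7.70).

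The enzymes that finish lagging strand fragments fell. Fen1, which trims the flap before joining, measured 6.79, 7.17, 6.93 and 6.86 in WT and 6.58, 6.52, 6.37 and 6.55 in KO. Lig1, which seals the nick, measured 7.78, 7.77, 7.65 and 7.39 in WT and 7.29, 7.22, 7.16 and 7.24 in KO. Neither gene overlapped between genotypes, although WT replicate 4 was the lowest WT array of Lig1 and lay close to KO. Fen1 fell 1.35-fold (-0.44, SE 0.084, adjusted p = 0.0106). Its second, dimmer probe set (mean 5.59) differed by -0.18 with overlapping groups, and the call was kept in the mean of both probe sets. The fall of Lig1 was 1.34-fold (-0.42, SE 0.086, adjusted p = 0.0135). Over the RPA and maturation genes together 3 of 5 fell and 1 rose, with a median of -0.19.

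Of the 4 nucleotide supply genes 2 fell, and all 4 differences were negative (median -0.45). Rrm1, the large subunit of ribonucleotide reductase, which makes deoxynucleotides, measured 9.28, 9.31, 9.22 and 9.12 in WT and 8.80, 8.82, 8.83 and 8.83 in KO. The KO arrays of Rrm1 were nearly identical, and it fell 1.33-fold (-0.41, SE 0.053, adjusted p = 0.00163). Tk1, the salvage kinase of thymidine, measured 7.10, 7.01, 6.94 and 6.54 in WT and 6.32, 6.33, 6.46 and 6.53 in KO. WT replicate 4 and KO replicate 4 all but met, and the 1.40-fold fall (adjusted p = 0.0219) needed WT replicates 2 and 3 and KO replicates 1 and 2 (otherwise adjusted p at most 0.0630).

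Rrm2, the small reductase subunit that peaks in S phase, measured 7.57, 8.09, 7.65 and 7.06 in WT and 7.01, 7.05, 7.20 and 6.97 in KO. Tyms, which makes thymidylate, measured 7.99, 8.10, 8.09 and 7.61 in WT and 7.64, 7.57, 7.77 and 7.86 in KO. In both genes WT replicate 4 lay among the KO arrays, and neither was called (-0.53, adjusted p = 0.0741, and -0.24, adjusted p = 0.186). Without WT replicate 4 both passed, Rrm2 at -0.71 (adjusted p = 0.00964) and Tyms at -0.35 (adjusted p = 0.0231), which made 4 of 4 in this group. The count was 1 in the absence of WT replicate 2 or 3 and of KO replicate 1 or 2, each alone. Tyms also lies on a probe set shared with its pseudogene Tyms-ps, which was not used. The second probe set of Rrm2 was dim (mean 3.25) and differed by 0.001.

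WT replicate 4 stood apart from the other WT arrays in these genes. The mean of the 45 genes, each taken relative to its own WT mean, was 0.025, 0.086, 0.015 and -0.126 in WT and -0.286, -0.292, -0.302 and -0.273 in KO. The genotypes did not overlap, and the KO arrays spanned a narrower range than the WT arrays. WT replicate 4 was the lowest WT array in 32 of the 45 genes (71.1%), against 23.6% of all tested genes. By group, KO and WT levels were separated everywhere except in the origin genes, where WT replicate 4 stood at -0.092 and KO ran from -0.109 to -0.062. In the nucleotide genes WT replicate 4, at -0.335, nearly reached the highest KO array, at -0.352.

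**Figure D3:**
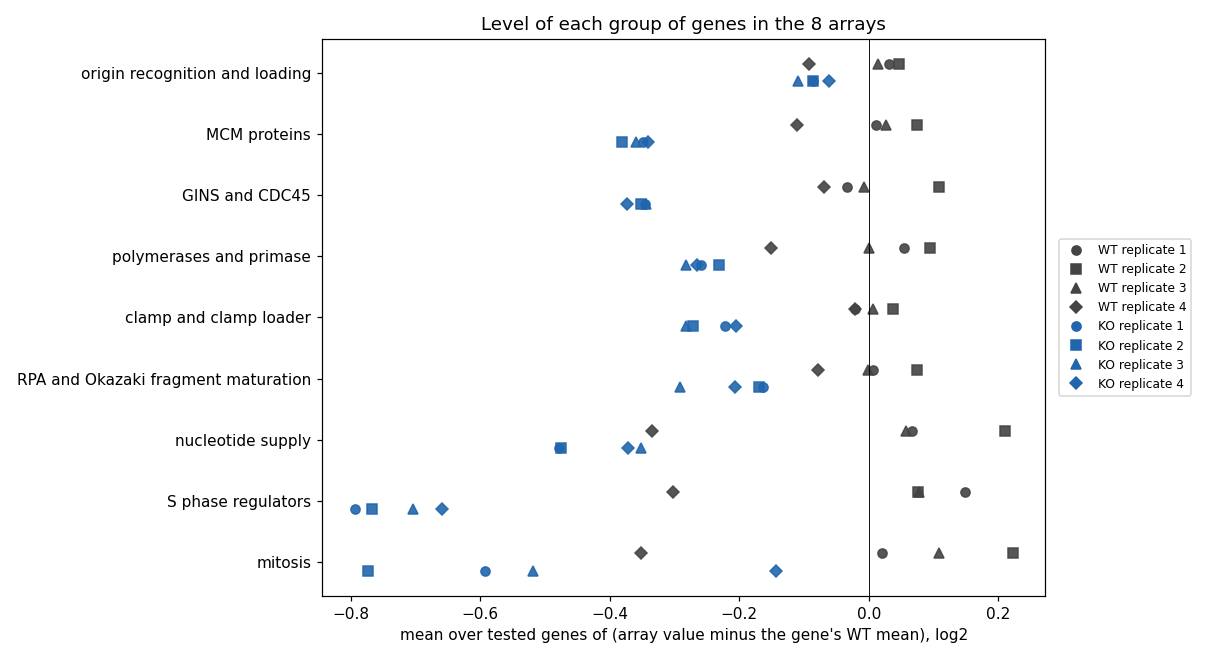
Mean level of each group of replication genes, and of the mitosis genes, in each array (horizontal axis, log2 relative to the WT mean of each gene; symbols mark the replicate and colours the genotype). WT replicate 4 is the lowest WT point in every group, level with WT replicate 1 at -0.022 in the clamp group, and WT and KO points overlap in the origin and mitosis genes.

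The position of WT replicate 4 differed from gene to gene. Of the 26 genes that fell, 7 had WT replicate 4 at least 0.3 log2 below the mean of the other WT arrays, and these were Cdc6, Mcm10, Pole, Lig1, Tk1, E2f1 and Dtl. In 6 it lay within 0.1 of that mean, in Mcm2, Mcm4, Mcm7, Gins2, Gins3 and Rpa2. In none of the 26 did it reach the highest KO array. These genes were picked out after their values were seen, and the basis of the difference between WT arrays was not tested.

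**Figure D4:**
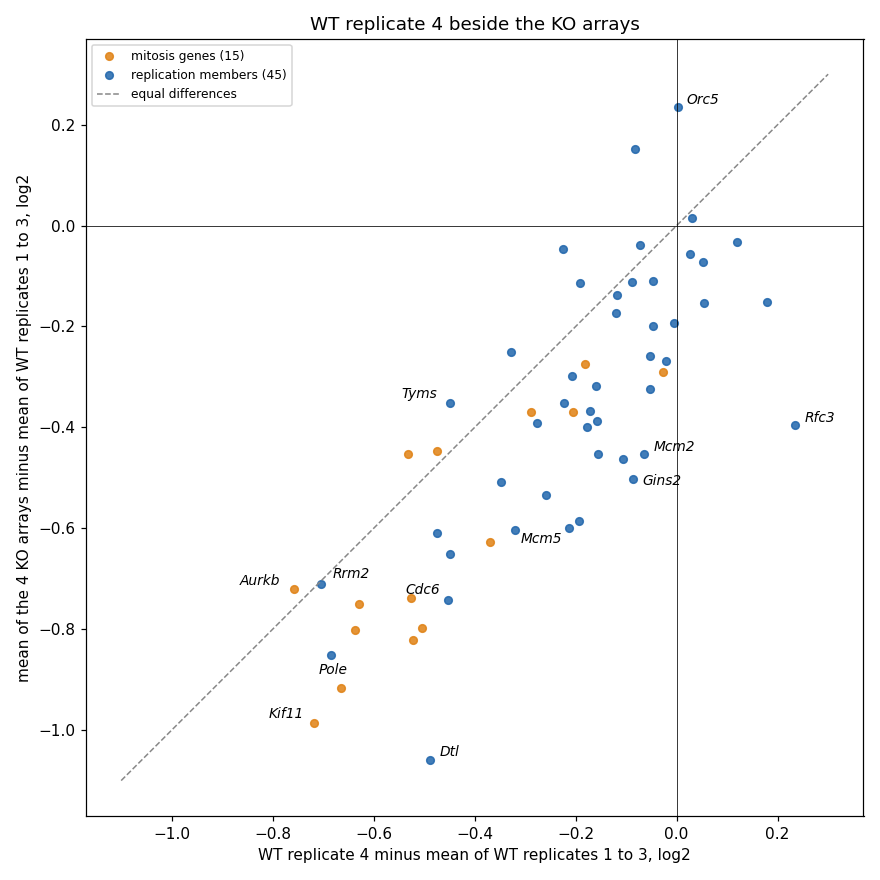
For each replication and mitosis gene, the level of WT replicate 4 (horizontal axis) and the KO mean (vertical axis), both in log2 relative to the mean of WT replicates 1 to 3, which the axes share; the dashed line marks equal values. Pole, Rrm2 and Tk1 lie far to the left, at -0.68, -0.71 and -0.48, while Mcm2 and Gins2 lie near 0 on the horizontal axis, at -0.06 and -0.09, and low on the vertical one, at -0.45 and -0.50.

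Further genes around the fork were given in lists, of which 5 concern replication or division. Among 17 tested genes of origin firing and fork protection 5 fell (29.4%) and 1 rose (median -0.17). Over all tested genes 8.53% fell and 4.45% rose. Chek1, the checkpoint kinase of stalled forks, fell 1.65-fold (-0.72, adjusted p = 0.00195). Clspn, its adaptor claspin, fell 1.34-fold (-0.43, adjusted p = 0.0104), but its KO mean of 5.50 was under the filter, so that it was tested only because of its WT level of 5.93. Ticrr, which brings firing factors to the helicase, fell 1.66-fold (-0.73, adjusted p = 0.0201), a call that needed WT replicates 2 and 3 and KO replicates 1 and 2 (otherwise adjusted p at most 0.0558). Dna2, a nuclease of long flaps, fell 1.39-fold (-0.48, adjusted p = 0.0213), a call that needed WT replicate 2 and KO replicate 3 (otherwise at most 0.0582). The gene that rose, named after its value was seen, was Donson, which acts in helicase assembly (0.39, adjusted p = 0.00577). Falls numbered 2 without WT replicate 2, and 3 without KO replicate 1, 2 or 3.

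Among 13 tested genes of clamp handling, chromatin and accessory subunits 6 fell (46.2%, against 8.53% of all tested genes). All 13 differences were negative (median -0.16). Uhrf1, which guides maintenance of DNA methylation, fell 1.58-fold (-0.66, adjusted p = 0.00263), and the histone chaperone Asf1b 1.54-fold (-0.62, adjusted p = 0.00777). Chaf1a, the large subunit of the chromatin assembly factor, fell 1.57-fold (adjusted p = 0.0210), but not when KO replicate 2 or 3 was left out (at most 0.0565). Atad5, which unloads the clamp, fell 1.44-fold with overlapping groups (adjusted p = 0.0398), but of the single arrays only WT replicate 4 could be left out without losing the call (otherwise at most 0.10). Without KO replicate 2 or 3 it was 3 falls.

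Among 14 tested genes of nucleotide metabolism 4 fell (28.6%) and 2 rose (median -0.14), against 8.53% and 4.45% of all tested genes. Those that fell most were Shmt1, a serine hydroxymethyltransferase of the folate cycle, at 1.26-fold (-0.33, adjusted p = 0.0102), and Umps, of pyrimidine synthesis, at 1.21-fold (-0.27, adjusted p = 0.00581). The genes that rose were Rrm2b and Dck. Rrm2b, the small reductase subunit used by resting cells and a p53 target, measured 7.58, 7.72, 7.67 and 7.45 in WT and 8.28, 8.19, 8.07 and 8.02 in KO, all above WT, and rose 1.45-fold (0.54, adjusted p = 0.00285). Dck, the salvage kinase of deoxycytidine, rose 1.24-fold (0.31, adjusted p = 0.0135).

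Among 25 tested genes of E2F and G1/S control 8 fell (32%) and 1 rose (median -0.24), against 8.53% and 4.45% of all tested genes. E2f3, an activating E2F factor, fell 1.64-fold (-0.71, adjusted p = 0.000807), the phosphatase Cdc25a 1.34-fold (-0.42, adjusted p = 0.00299) and Tfdp1, the partner of E2F proteins on DNA, 1.32-fold (-0.40, adjusted p = 0.00531). Cdkn1b, the CDK inhibitor p27, rose 1.22-fold (0.28, adjusted p = 0.0104). The other CDK inhibitors of the list, named after their values were seen, did not rise with it. Cdkn2d fell 1.21-fold (-0.27, adjusted p = 0.0184), and Cdkn2c and Cdkn1a were not called (-0.29 and 0.06). The calls of E2f3, Cdc25a, Tfdp1 and Cdkn1b were made without any single array. Falls numbered 13 without WT replicate 4, 4 without WT replicate 2 or KO replicate 3, and 5 without WT replicate 3 or KO replicate 1.

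The mitosis genes, which act after S phase, differed by more on average but with far more spread. Of 15 tested 8 fell (53.3%, against 8.53% of all tested genes). All 15 differences were negative, with a median of -0.54. Only 1 of the 15, Cenpe, had all KO arrays below all WT arrays, against 13.5% of all tested genes. Kif11, a spindle motor, measured 8.24, 8.36, 8.43 and 7.62 in WT and 7.15, 7.06, 7.42 and 7.79 in KO, so that KO replicate 4 lay above WT replicate 4. It fell 1.75-fold (adjusted p = 0.0278), and Top2a, Bub1 and Cdk1 fell 1.68-fold, 1.62-fold and 1.59-fold (adjusted p = 0.0286, 0.0414 and 0.0189). The mean level of the list was 0.02, 0.22, 0.11 and -0.35 in WT and -0.59, -0.77, -0.52 and -0.14 in KO. The groups overlapped here, which the replication genes as a whole did not. Without WT replicate 2, WT replicate 3 or KO replicate 1 limma called 0 mitosis genes (8, 10 and 9 at an unadjusted p under 0.05). With all arrays, 3378 of all 11585 tested genes had an unadjusted p under 0.05 by limma. The count of mitosis genes called was 1 without WT replicate 1, KO replicate 2 or KO replicate 3, and 11 without KO replicate 4. The calls of Kif11, Top2a and Bub1 needed every array except WT replicate 4 and KO replicate 4 (otherwise adjusted p at most 0.0767, 0.0753 and 0.102), and that of Cdk1 needed WT replicates 2 and 3 and KO replicate 1 (otherwise at most 0.0550). The difference between the replication and mitosis genes was not tested.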

How the data were processed

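RNA of 8 CD4SP thymocyte samples was made into biotin-labelled cDNA and hybridised to Affymetrix gene-level arrays, per the labels' protocols. The submitters' processing notes name RMA and Affymetrix Expression Console 1.1, with which the authors made the deposited log2 intensities. Their genome build is not given in the sources. RMA compresses differences of dim genes, and precision is limited by the number of arrays.

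Of 41345 probe sets, 23521 carried 1 symbol and 1814 several in the platform annotation, which can be old. Genes with a mean at or above 5.56 were tested in R 4.3.3 with lmFit and eBayes of limma 3.58.1 (two-sided, genotype as the only term), with Benjamini-Hochberg adjustment over all tested genes. The fit was checked on simulated data. Every called replication gene was named with its fold change; per-array values were given for up to 4 genes of each group, called ones first by size and others by p. Up to 4 genes of each further list were named in that order, and up to 3 of each marker list by p. The genes and lists were chosen with earlier results of these data known. Promoters are RefSeq sequences of GRCm38.p6. Alternatives changed the filter, probe set choice, normalization, weights, prior, covariates and arrays. Replicates were numbered in accession order, and these numbers pair no samples.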

Additional observations from a re-analysis of the deposited data

Results flagged for a closer look

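Among 112 sets of 4 arrays checked, which were the 46 measured replication genes, Pggt1b and 9 mean levels in each genotype, 4 (3.57%) had 1 array far from the other 3 by Dixon's ratio at its 95% critical value, and chance marks about 1 in 20. Orc2 stood at 8.47 in WT replicate 2, against 8.36 to 8.38 in the other WT arrays. Pole stood at 7.16 in KO replicate 1, against 7.28 to 7.31 in the other KO arrays. Rfc2 stood at 8.11 in WT replicate 4, against 8.31 to 8.34 in the other WT arrays. The level of the S phase regulators Dtl and E2f1 was -0.30 in WT replicate 4, against 0.08 to 0.15 in the others (log2 relative to the WT mean). WT replicate 4 was also the lowest WT array in most replication genes.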

How the results depend on the processing

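No called difference changed sign under any alternative. The median of the replication genes kept its size within the spread between replicates throughout. With single arrays left out, 15 to 26 replication genes fell and 1 to 2 rose. By group, falls ran from 4 to 6 (MCM), 2 to 3 (GINS and CDC45) and 1 to 5 (polymerases). They ran from 2 to 3 in the clamp genes and in the RPA and maturation genes, and from 1 to 4 in nucleotide supply. The RPA rise ran from 0 to 1 (1 at an unadjusted p under 0.05 by limma each time). The GINS median ran from -0.399 to -0.266 and the clamp median from -0.298 to -0.222. In the other lists falls ran from 2 to 5 (origin firing), 3 to 6 (clamp handling and chromatin), 4 to 13 (E2F and G1/S) and 0 to 11 (mitosis), and over all genes falls ran from 493 to 945 and rises from 302 to 496.

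Without the intensity filter 18 replication genes fell and 1 rose, and falls were 2 in GINS and CDC45, 3 in the polymerases, 5 in E2F and G1/S, 4 in mitosis and 556 over all genes, with 0 rises in RPA (1 at an unadjusted p under 0.05 by limma). Averaging a gene's probe sets, and centring each array, gave 1 rise in all and 0 in RPA (0 and 1 at an unadjusted p under 0.05), and centring moved the clamp median to -0.280. Of all calls 34.3% were rises, and 22.5% after centring. With the titles' sample number as a covariate, 20 replication genes fell, and falls were 2 in GINS and CDC45 and 4 in mitosis.

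With heat-shock RNA as a covariate, 17 replication genes fell and 1 rose; falls were 2 in GINS and CDC45, 2 in the polymerases, 1 in nucleotide supply, 2 in origin firing, 3 in clamp handling and chromatin, 0 in mitosis (9 at an unadjusted p under 0.05 by limma) and 524 over all genes, with 0 rises in RPA (1 at that level). Without KO replicates 1 and 2 together, 6 replication genes fell and 0 rose (30 and 1 at that level). Falls were then 2 in MCM, 1 each in GINS and CDC45, the polymerases, nucleotide supply, the S phase regulators, origin firing, and clamp handling and chromatin, 3 in E2F and G1/S, 122 over all genes, and 0 in the origin, clamp, RPA, nucleotide metabolism and mitosis genes (1, 3, 4, 5 and 6 at that level). Rises were then 1 in nucleotide metabolism, 136 over all genes and 0 in the origin, RPA, origin firing and E2F and G1/S genes (1, 0, 1 and 1 at that level), and the RPA median was -0.249. Both settings were chosen after seeing the data, and fewer samples enter the second; otherwise the cause was not tested. No paired analysis was possible because the labels give no replicate numbers that link WT and KO samples. Genes near the filter, such as Gins1, are measured least well.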
